A study of Mus musculus with 6 samples.

Results

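The 93 genes described here are well-expressed genes of mouse osteoblasts that the deposited table annotates with noncoding transcripts only. They were chosen from 19679 gene symbols as those whose RefSeq transcripts all carried the noncoding transcript prefix (1903 symbols) and whose RPKM, summed over transcripts, averaged at least 5 over the 6 libraries (98 symbols). RPKM is the number of reads scaled by transcript length and by the number of mapped reads of the library. Of these 98, Dlx4os, H19, Meg3, Mir22hg and Snora70 were set aside by name or prefix, which left 93. The prefixes were Snor, Mir, Scarna, Hox, Dlx and Msx. The names were the imprinted RNAs Meg3, Rian, Dio3os, H19, Kcnq1ot1, Airn, Nespas and Peg13, and other imprinted RNAs were not looked for. The choice used the level over all libraries and not the difference between sites. At the threshold, Snhg17 (mean 5.10 RPKM) and Gm25212 and Gm26391 (5.42 each) lay just inside, and 2610307P16Rik (4.87), Gm8615 (4.84) and Gm16702 (4.84) just outside. The mandible mean was at least 5 in 87 members, the tibia mean in 90 and both in 84.

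Noncoding genes of this kind work in several ways. Structural RNAs such as ribosomal RNA and the RNA of RNase P are catalytic or scaffolding parts of large particles. Small nucleolar RNA (snoRNA) host genes are spliced transcripts whose introns release the snoRNAs that guide chemical modification of ribosomal RNA, and many of them, like ribosomal protein genes, start with a tract of pyrimidines that ties translation and stability of the transcript to growth signals. Nuclear RNAs such as Malat1 and Neat1 sit in or build nuclear bodies. Processed pseudogenes are copies of mRNAs put back into the genome, and because they can differ from their parent gene by few bases, short reads of the one may be counted for the other.

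The libraries fall into 2 groups of 3, written Md-OB and Tb-OB in the labels: osteoblasts of the mandible (lower jaw) and osteoblasts of the tibia (shin bone). All mice were at postnatal day 9 and carried the Col1a1*2,3-GFP transgene, in which a piece of the promoter of the collagen gene Col1a1 drives green fluorescent protein. Such promoters are active in osteoblasts and also in odontoblasts, the dentin-forming cells of teeth. Cells were released with collagenase I and sorted for fluorescence; each of the 3 dissections pooled about 50 mice, and dissection number 1, 2 or 3 names 1 library of each site. Amounts of 2 to 8 ng RNA went into a cDNA kit for very low input (SMART-Seq v4), which primes on poly(A) tails, so RNAs without such a tail are captured poorly.

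The libraries held about 48.3 to 57.7 M reads, recovered approximately from the steps of low RPKM values. The 12 osteoblast markers (Bglap, Col1a1 and Spp1 the most abundant) summed to 72227 to 82790 RPKM in mandible and 76315 to 91431 RPKM in tibia libraries. Markers of other cells were also present. The mandible libraries held 513 to 2183 RPKM of ameloblast markers, against 6.73 to 9.79 RPKM in tibia libraries, and the markers of odontoblasts (median log2 difference 2.49), cartilage (1.97), epithelium (1.40) and Schwann cells (0.72) were on the mandible side too, while those of endothelium (-1.16) and leukocytes and osteoclasts (-0.54) were on the tibia side. Both libraries of dissection 3 stood apart: their RPKM summed to 586126 in mandible and 547950 in tibia, against 392579 and 410846 in mandible and 374077 and 390572 in tibia libraries of dissections 1 and 2. Their erythroid and leukocyte markers were also highest, with erythroid sums of 2840, 10019 and 26567 RPKM in mandible libraries 1 to 3 and 7089, 18027 and 53884 RPKM in tibia libraries 1 to 3. In bulk samples such as these, fewer cells of a type and less RNA per cell cannot be told apart.

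Host genes, Rn45s and Vaultrc5 were classed by gene name and the rest by the RefSeq annotation of GRCm38.p6, to which 92 of the 93 symbols were matched (Rn45s was not). The members were 34 long noncoding RNAs of various kinds, 27 pseudogenes, 16 snoRNA host genes, 10 structural RNAs and 6 genes now annotated as protein coding. For those 6 the noncoding label of the table goes against the newer annotation. They are 1810058I24Rik (Stmp1, a small mitochondrial protein), Toporsos (Smim27), 2610001J05Rik, Rhno1 (a checkpoint protein), 1500011K16Rik (Mtln, the mitochondrial micropeptide mitoregulin) and 6430706D22Rik (Hjurp, a centromere histone chaperone). Of 85 members with a known strand, 24 have a coding gene on the opposite strand. The strand setting of the counting was not given in the sources used here, so for these 24 the reads of the 2 strands may not be told apart.

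Gm25018, Gm23284, Gm22291, Gm25212, Gm26391 and Gm22109 are 6 copies of the gene of 5S ribosomal RNA on chromosome 8, with the same RPKM in every library, so they are 1 measurement under 6 names and the 93 members make 88 distinct profiles.

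The transcription starts of 6 snoRNA host genes follow, shown for the pyrimidine tract that many, not all, host genes and ribosomal protein genes have there. Each line has 15 bases before and 30 bases from the RefSeq start (GRCm38.p6), with the tract in capitals. The tract was searched on the gene's own strand as a C followed by at least 4 bases that are each C or T, beginning between positions -5 and 10 counted from the start. They are Snhg3 (chr4:132353657-132353701, minus strand), Snhg8 (chr3:123508307-123508351, minus), Snhg12 (chr4:132308663-132308707, plus), 2410006H16Rik (chr11:62602862-62602906, plus) and the second annotated start of Gas5 (chr1:161035151-161035195, plus), with Snhg1 (chr19:8723472-8723516, plus) as a host gene in which the search found none.
Snhg3: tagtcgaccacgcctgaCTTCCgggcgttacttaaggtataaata
Snhg8: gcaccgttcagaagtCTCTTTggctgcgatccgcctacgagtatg
Snhg12: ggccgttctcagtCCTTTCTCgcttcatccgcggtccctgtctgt
2410006H16Rik: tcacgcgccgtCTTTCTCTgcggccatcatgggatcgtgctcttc
Gas5: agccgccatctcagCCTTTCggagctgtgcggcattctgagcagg
Snhg1: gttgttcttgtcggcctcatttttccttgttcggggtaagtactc
A tract was found in 9 of 13 host members with a promoter in the RefSeq table (69.2%), in 10 of 24 other long noncoding members (41.7%), in 33 of 60 ribosomal protein and translation factor genes (55.0%) and in 7152 of all 27025 genes with a promoter (26.5%). The match is a description of these letters. Snhg1 carries a pyrimidine-rich stretch inside its window that begins with T, outside the pattern as set.

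Levels spanned 3 orders of magnitude. The highest mean RPKM belonged to the ubiquitin pseudogene Gm1821 (5646), followed by Rn45s, the precursor of the large ribosomal RNAs (3764), and Malat1 (1431). The 12 most abundant members also held the pseudogenes Oaz1-ps, Gm15772, Gm12191, Atp6v0c-ps2, Nutf2-ps1 and Gm6644 and the host genes 2410006H16Rik, Gas5 and Snhg5. Together the members took 3.32%, 3.13% and 3.33% of the summed RPKM of mandible libraries 1 to 3, against 3.79%, 3.50% and 3.65% in tibia libraries 1 to 3, so each mandible share lay below each tibia share. The structural RNAs made up 0.686%, 0.546% and 0.504% in mandible and 1.23%, 1.23% and 1.06% in tibia libraries. The host genes ran the other way within each dissection, at 0.146%, 0.155% and 0.203% in mandible and 0.125%, 0.134% and 0.174% in tibia libraries.

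**Figure D1:**
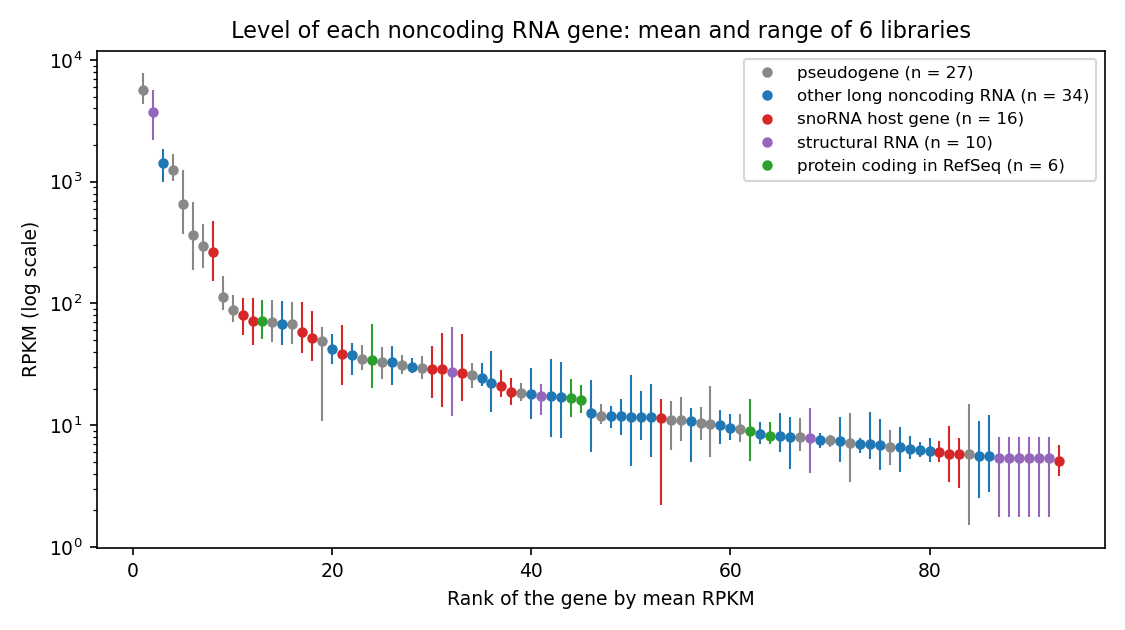
Mean RPKM (points, log axis) and range over the 6 libraries (vertical lines) of the 93 members, ranked by their mean and coloured by class. The pseudogene Gm1821 (5646), Rn45s (3764) and Malat1 (1431) lead, and the 6 copies of 5S ribosomal RNA lie together at 5.42.

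Between the sites, the structural RNAs were the class with the lower values in mandible. Rn45s was lower in mandible and the pseudogene Gm3893 and the X-linked nuclear RNA Firre were higher, each past the threshold with the dissection number as a block in the model but not in the model of site only over all 6 libraries. Without both libraries of dissection 3 all 3 passed without a block as well (limma adjusted p of 0.0256 for Rn45s, 0.00722 for Gm3893 and 0.0490 for Firre). In the model of site only, 0 of 93 members passed an adjusted p of 0.05 (limma over all 12752 genes), where 0.972% of all genes did. At an unadjusted p of 0.05 there were 12 (12.9%, against 8.99% of all genes), 6 of them the copies of 5S, and with the copies counted once the share was 7.95% of 88. With the block, 3 members passed against 6.49% of all genes, 2 of them higher (4.44%) and 1 lower (2.05%). The members' median log2 difference, mandible minus tibia, was 0.11, and over all genes it was 0.12. Quantile normalization moved these medians to -0.03 and -0.01 and median-of-ratios scaling to -0.02 and 0.00, so a log2 difference of about 0.12 is the place of the bulk of the genes. The mandible libraries lay above every tibia library in 9 members (9.68%, against 12.6% of all genes) and below every tibia library in 8 (against 3.05%). The site difference had the same sign in all 3 dissections in 34 members on the higher and 20 on the lower side (58.1% together, against 50.3% of all genes). All of the 8 members without overlap on the lower side were structural RNAs, and 6 of them are the same 5S profile, which reached the threshold of level through tibia. With that profile counted once, 3 of 88 lay below (3.41%), a share near that of all genes.

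Rn45s had 2655, 2194 and 2862 RPKM in mandible libraries 1 to 3, against 4463, 4722 and 5689 RPKM in tibia libraries 1 to 3. The groups did not overlap. Its log2 difference was -0.95 (SE 0.35, limma adjusted p = 0.486), with -0.75, -1.11 and -0.99 within dissections 1, 2 and 3. With the block the SE was 0.11 and the adjusted p 0.00713, so Rn45s fell in mandible in that model. Its values kept their sign under quantile normalization (-0.88) and median-of-ratios scaling (-1.09).

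Rpph1, the RNA subunit of RNase P that trims the leader of transfer RNAs, had 11.9, 14.1 and 21.04 RPKM in mandible libraries, against 64.3, 26.8 and 26.1 RPKM in tibia libraries. The tibia values all lay above the mandible values, and tibia library 1 lay far above the others. The log2 difference was -1.20 (SE 0.41, adjusted p = 0.429, and 0.101 with the block), so it passed neither test. The 5S profile had 1.75, 2.87 and 5.86 RPKM in mandible libraries, against 8.04, 6.23 and 7.76 RPKM in tibia libraries. It also did not overlap and did not pass (log2 difference -1.10, SE 0.38, adjusted p = 0.435, and 0.0684 with the block). Each 5S symbol sums 10 equal rows, and 1 such row stood for an estimated 1.02, 2.00 and 3.59 reads in mandible and 4.73, 3.86 and 4.83 reads in tibia libraries. If reads were split among identical copies, the 60 rows of the 6 symbols together stood for about 61.5, 120 and 216 reads in mandible. Tibia libraries then held about 284, 232 and 290 reads. If each read was counted at every copy, the libraries held only the reads of 1 row. Which rule applied was not given in the sources used here. Without both libraries of dissection 3 the 5S difference was -1.46 with an adjusted p of 0.0231. The 5S copies reached the mean of 5 only through the tibia libraries. Vaultrc5, a vault particle RNA, had 4.04, 4.34 and 13.8 RPKM in mandible and 9.73, 4.02 and 11.0 RPKM in tibia libraries, which overlap. Rn4.5s, a small rodent RNA, had 12.2, 13.8 and 21.9 RPKM in mandible and 18.0, 18.5 and 19.96 RPKM in tibia libraries, which overlap as well. The 5 distinct structural profiles had a median log2 difference of -0.95 as deposited, -0.88 after quantile normalization and -1.09 after median-of-ratios scaling. Within dissections the sign of Rn45s, Rpph1 and 5S was the same in all 3, while Rn4.5s was at 0.13 in dissection 3 and Vaultrc5 at 0.10 and 0.32 in dissections 2 and 3. These RNAs lack a poly(A) tail and the capture of such RNA in each library was not measured. The markers of 2 other cell types were on the tibia side in every dissection, the 10 erythroid markers (median -1.12, 9 lower with the block) and the 7 endothelial markers (median -1.16, 5 lower with the block). Endothelial markers summed to 32.3, 39.8 and 46.9 RPKM in mandible and 124, 68.9 and 97.6 RPKM in tibia libraries. Their part in the difference of the structural RNAs was not tested.

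Gm3893, annotated as a pseudogene on chromosome 4, had 15.04, 9.07 and 4.43 RPKM in mandible libraries, against 2.26, 2.33 and 1.51 RPKM in tibia libraries. Every mandible value lay above every tibia value, and the mandible values ran over more than a 3-fold range. The log2 difference was 1.85 (SE 0.42, adjusted p = 0.167), the largest of the 93, and with the block it passed (SE 0.23, adjusted p = 0.00903). Without mandible library 3 it passed without the block too (2.29, adjusted p = 0.0285). Over 889 of its 909 bases Gm3893 matched a coding transcript, Gm2163, at 100% identity, so the place of these reads in the genome is uncertain. It reached the mean of 5 through the mandible libraries. Firre, an RNA of chromosome X that helps to organise chromatin in the nucleus, had 8.58, 11.2 and 6.13 RPKM in mandible libraries, against 5.40, 5.78 and 4.31 RPKM in tibia libraries. The groups did not overlap, by a narrow gap. Its log2 difference of 0.66 did not pass without the block (SE 0.25, adjusted p = 0.505), passed with it (SE 0.14, adjusted p = 0.0419) and missed the threshold when the block was joined with quantile normalization (0.55, adjusted p = 0.0613).

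**Figure D2:**
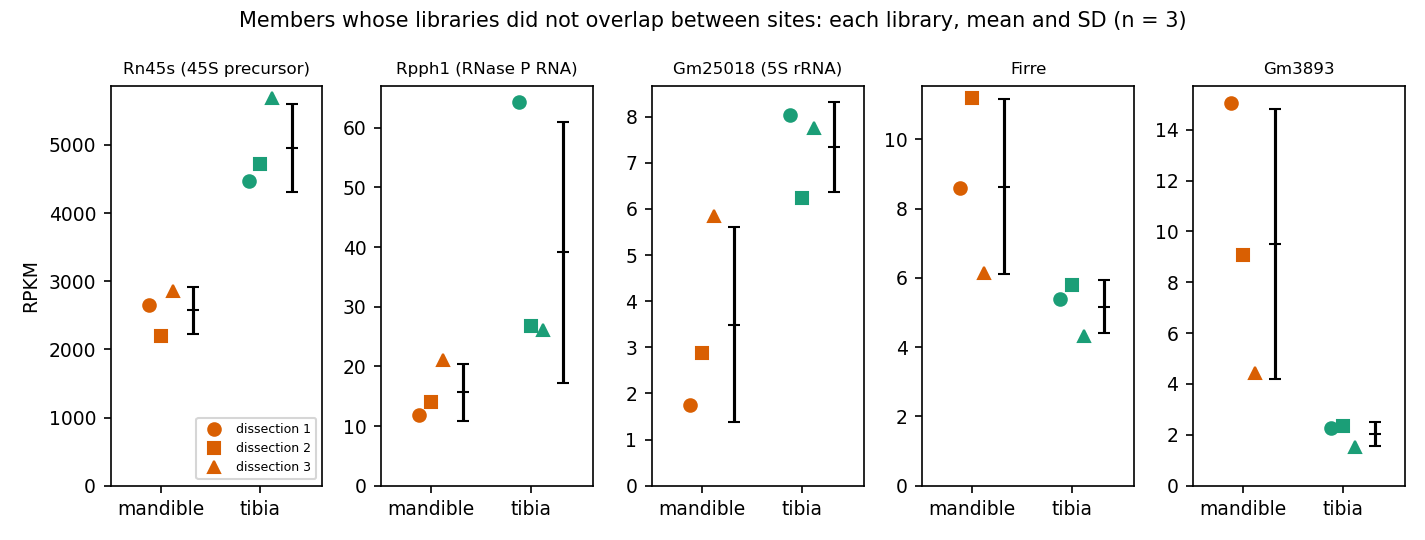
RPKM of Rn45s, Rpph1, 5S ribosomal RNA (Gm25018), Firre and Gm3893 in each library (linear axes from 0), with the mandible left of the tibia, symbols for the dissection, and bars for mean and SD (n = 3). For each of the 5 genes no mandible value lies within the range of the tibia values, with Rn45s at 2194 to 2862 in mandible and 4463 to 5689 in tibia, and Gm3893 at 4.43 to 15.04 in mandible and 1.51 to 2.33 in tibia.

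Of the remaining members with the largest differences between sites, Snhg20, Rps4l and Snhg6 each had 1 library that stood apart. Snhg20 (log2 difference 1.03), a host gene, had 12.2, 16.5 and 14.9 RPKM in mandible libraries, against 13.6, 9.49 and 2.22 RPKM in tibia libraries. Rps4l (0.76), a copy of a ribosomal protein gene, had 53.1, 60.3 and 56.3 RPKM in mandible libraries, against 52.4, 63.6 and 10.8 RPKM in tibia libraries. In both, tibia library 3 alone was low, and without it the log2 difference of Rps4l was -0.03. Snhg6 (0.71) had 20.5, 25.8 and 56.5 RPKM in mandible libraries, against 15.7, 22.4 and 19.1 RPKM in tibia libraries, so that here mandible library 3 alone was high. Rab10os (0.70) had 13.1, 13.9 and 13.1 RPKM in mandible libraries, against 8.55, 11.98 and 4.999 RPKM in tibia libraries, which did not overlap, and it was on the mandible side in each dissection. None of these 4 passed with or without the block (adjusted p between 0.104 and 0.875).

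Dissection 3 differed from dissections 1 and 2 in far more members than the sites did. It was singled out with earlier results of these data known, in which both its libraries stood apart. A large count was therefore likely in advance, and the counts for dissection and site are not on equal terms. The limma model of site and dissection set dissection 3 alone against dissections 1 and 2. Its p-values therefore reflect how alike the sites moved, not how dissections vary. In that limma model, 58 of 93 members passed an adjusted p of 0.05, against 45.3% of all genes. Of these, 51 were higher in dissection 3 (28.1% of all genes were) and 7 lower (17.2%). Among the 6005 other genes with a mean of at least 5 RPKM, 36.8% were higher and 21.1% lower, with a median of 0.16. These other genes are longer, with a median of 2340 bases against 816 in the members, and the shares were not matched for length. The members' median log2 difference, dissection 3 minus the mean of 1 and 2, was 0.62, and over all genes it was 0.10. Quantile normalization gave 0.40 and 0.02 with 40 higher and 11 lower members, and median-of-ratios scaling gave 0.49 and -0.01 with 45 higher and 8 lower. That scaling moved the share of higher calls among all genes from 62.0% to 50.5%. Both libraries of dissection 3 lay above every other library in 53 members (33.4% of all genes and 40.3% of the others at this level) and below every other in 4 (20%), which were Neat1, 2900097C17Rik, Tug1 and Dnm3os. The dissection difference was larger in size than the site difference in 67 of 93 members (72.0%), a share near the 70.2% of all genes. What set dissection 3 apart is not in the labels, and its erythroid markers (8 of 10 higher, median 2.20) and leukocyte and osteoclast markers (7 of 11 higher, median 1.54) moved with it.

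**Figure D3:**
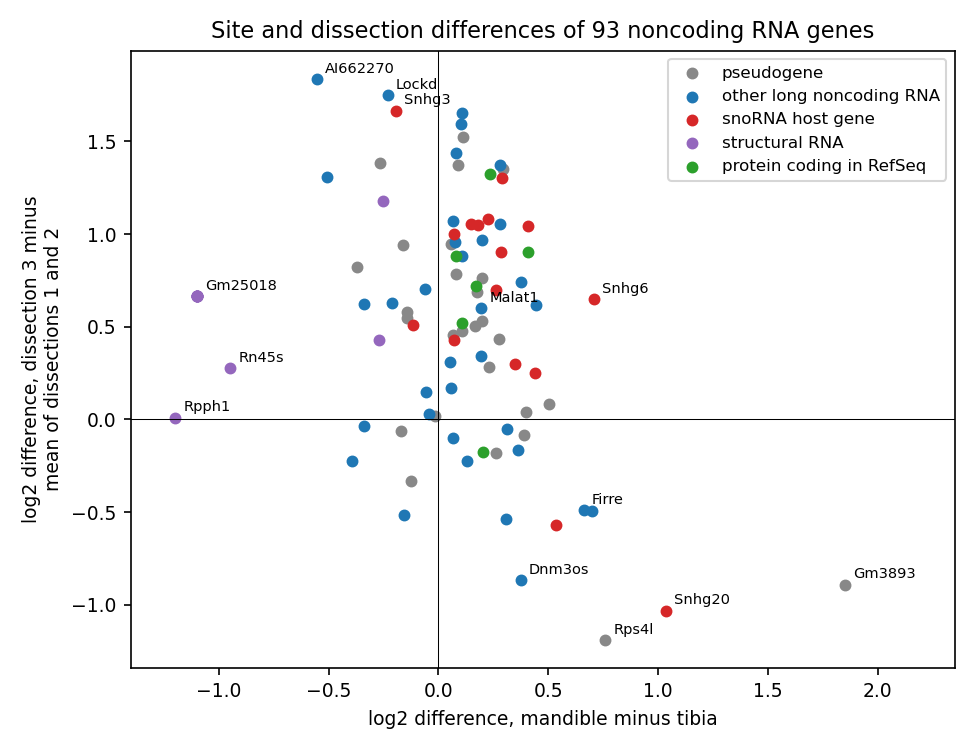
Log2 difference of each member between sites (mandible minus tibia, horizontal) and between dissections (dissection 3 minus the mean of 1 and 2, vertical), one point per member, coloured by class, with the 6 copies of 5S on 1 point. Most points lie above 0 vertically (51 members passed as higher and 7 as lower) and near 0 horizontally, with Gm3893 at 1.85 and Rpph1 at -1.20 as the ends.

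The snoRNA host genes were among the members highest in dissection 3. Of 16 members of this class, 11 rose and 1 fell in dissection 3, with a median log2 difference of 0.80 (0.47 after quantile normalization and 0.67 after median-of-ratios scaling, with 10 higher and 1 lower in both). Of all genes tested, 28.1% rose and 17.2% fell. The host genes are short, with a median of 606 bases. Of 577 other genes of 500 to 1000 bases with a mean of at least 5 RPKM, 453 rose and 26 fell (median 0.92), so the rise is not particular to host genes. Snhg3 had 49.0 RPKM in mandible and 57.6 RPKM in tibia of dissection 3, against 16.8 and 14.1 RPKM in mandible and 17.1 and 17.8 RPKM in tibia of dissections 1 and 2. It was about 3-fold higher in both sites, a log2 difference of 1.67 (SE 0.12, adjusted p = 0.000358). Snhg8 had 67.0 RPKM in mandible and 61.2 RPKM in tibia of dissection 3, against 24.5 and 34.9 RPKM in mandible and 21.5 and 23.7 RPKM in tibia of dissections 1 and 2 (log2 difference 1.30, SE 0.13, adjusted p = 0.000735).

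The same order of libraries held for the most abundant host genes. 2410006H16Rik had 478 RPKM in mandible and 331 RPKM in tibia of dissection 3, against 208 and 226 RPKM in mandible and 154 and 188 RPKM in tibia of dissections 1 and 2 (1.05, adjusted p = 0.000759). Gas5, with 9 snoRNA entries inside it, had 105 RPKM in mandible and 111 RPKM in tibia of dissection 3, against 70.7 and 84.5 RPKM in mandible and 58.5 and 55.5 RPKM in tibia of dissections 1 and 2 (0.70, adjusted p = 0.0111). Snhg5 (1.06), Snhg18 (1.08), Snhg1 (1.05), Snhg12 (0.90), Snhg4 (0.999), Gm11974 (Snhg15, 0.51) and Snhg7 (0.43) rose as well. 1810032O08Rik (Snhg16, 0.30), Snhg17 (0.25) and Snhg6 (0.65) did not pass, Snhg20 (-1.03, adjusted p = 0.121) did not either, and Epb41l4aos fell (-0.57, adjusted p = 0.0324). Epb41l4aos had 5.72 RPKM in mandible and 3.03 RPKM in tibia of dissection 3, against 7.02 and 7.92 RPKM in mandible and 6.11 and 5.07 RPKM in tibia of dissections 1 and 2. Snhg20 was low in tibia library 3 only, and without that library its difference was 0.06.

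**Figure D4:**
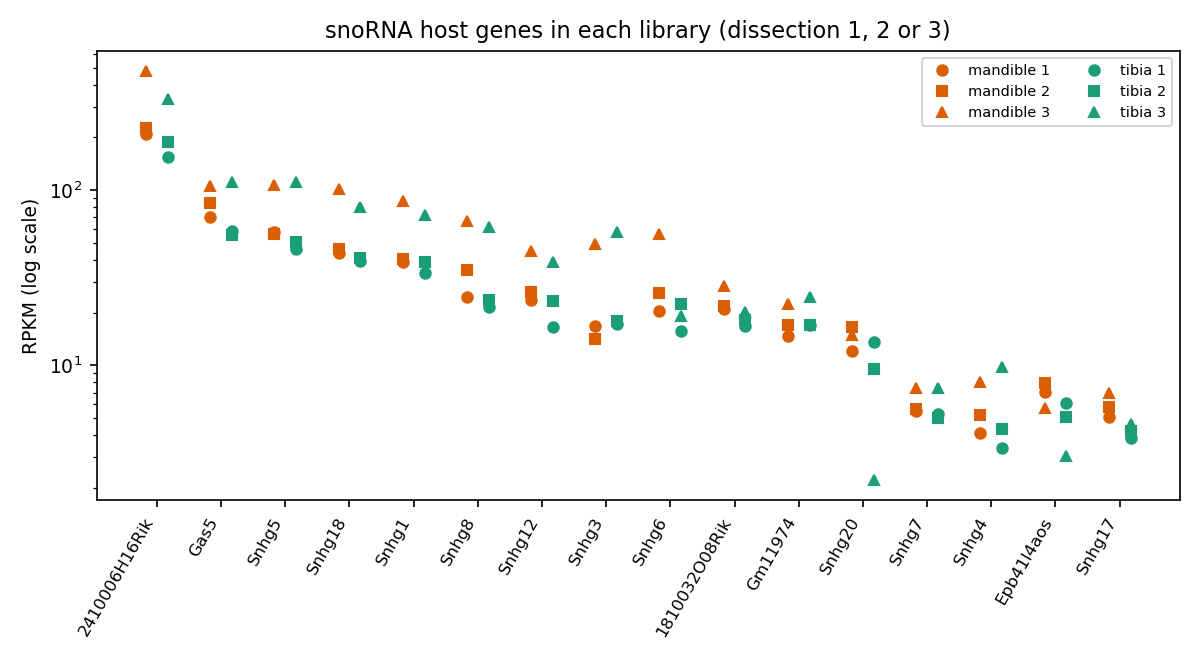
RPKM (log axis) of the 16 snoRNA host genes in each library, with the mandible left of the tibia for each gene and the dissection shown by the symbol, ordered by mean level. The triangles of dissection 3 stand above the other symbols in 11 of the 16 genes, and Snhg20 in tibia (2.22) and Epb41l4aos (5.72 in mandible and 3.03 in tibia) run the other way.

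Of the 9 host members with a pyrimidine tract at a start, such as those printed for Snhg3 and Snhg8, 8 rose in dissection 3 (median log2 difference 1.05), and of the 4 without one, 2 rose (0.38), Snhg1 and Gm11974. The 4 include Snhg20, low in tibia library 3 only, and Snhg1, whose pyrimidine-rich stretch lies outside the pattern as set. Snhg6, Snhg4 and Epb41l4aos had no promoter to search and are in neither group. A link between tract and rise was not tested. Coordinates of GENCODE M21 placed 45 snoRNA entries inside 17 members on the same strand, 14 of them of the host class. Rab26os, 1110038B12Rik and 2700038G22Rik also hold such entries but lie outside the host class, which was set by gene name. These 17 members gave 12 higher and 1 lower call with a median of 0.90, and the other 76 members a median of 0.56. In the wider list of 19 tested host genes, which includes those under 5 RPKM, 14 rose and 1 fell. The 81 ribosomal protein and translation factor genes rose in 77 and fell in 1 (median 1.21). They were listed as genes of the tract class, and the search found a tract in 33 of the 60 with a promoter. Their RPKM summed to 128601 in mandible and 96742 in tibia of dissection 3, against 52468 and 56757 in mandible and 43892 and 51086 in tibia of dissections 1 and 2. The 14 genes of snoRNP and ribosome assembly proteins rose in 9 and fell in 1 (median 0.53). The 19 genes of proteins of 7SK, RNase MRP and signal recognition particles rose in 10 (0.52). Of all genes tested, 28.1% rose and 17.2% fell. Between sites, 14 of the 16 host genes were above 0, 12 after either rescaling, and none passed; of the ribosomal list all 81 genes were above 0 (median 0.26), of which 1, Rpl31, passed, with the block only.

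The long nuclear and cytoplasmic RNAs split in dissection 3. Malat1, a nuclear-speckle RNA, had 1817 RPKM in mandible and 1869 RPKM in tibia of dissection 3, against 1274 and 1436 RPKM in mandible and 1199 and 990 RPKM in tibia of dissections 1 and 2 (log2 difference 0.60, SE 0.14, adjusted p = 0.0147). Neat1, the backbone of paraspeckles, went the other way, with 32.0 RPKM in mandible and 32.8 RPKM in tibia of dissection 3, against 41.9 and 44.7 RPKM in mandible and 55.9 and 45.2 RPKM in tibia of dissections 1 and 2 (-0.52, SE 0.13, adjusted p = 0.0175). 2900097C17Rik (Norad), which binds Pumilio proteins in human cells, had 32.3 RPKM in mandible and 25.8 RPKM in tibia of dissection 3, against 47.7 and 45.8 RPKM in mandible and 38.5 and 37.4 RPKM in tibia of dissections 1 and 2 (-0.54, SE 0.10, adjusted p = 0.00686).

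Tug1 had 26.7 RPKM in mandible and 27.3 RPKM in tibia of dissection 3, against 32.4 and 35.6 RPKM in mandible and 30.02 and 28.6 RPKM in tibia of dissections 1 and 2, and did not pass (-0.22, adjusted p = 0.173). 1700020I14Rik (Oip5os1, also called Cyrano, which drives decay of the microRNA miR-7) stayed between 5.94 and 7.82 RPKM in all 6 libraries. Between sites neither Malat1 (0.19) nor Neat1 (-0.16), 2900097C17Rik (0.31), Tug1 (0.13) or 1700020I14Rik (0.07) passed. The list of nuclear and X inactivation RNAs (6 tested) had 2 higher and 2 lower calls in dissection 3, and its Xist, below the threshold of 5, had 4.77, 4.45 and 2.40 RPKM in mandible and 2.36, 3.45 and 2.82 RPKM in tibia libraries. The 15 genes of paraspeckle and nuclear speckle proteins split as well, with 6 higher and 4 lower (median 0.15), as did the 10 genes of nonsense-mediated decay factors, with 3 higher and 2 lower (-0.08). All genes tested split too, with 28.1% higher and 17.2% lower.

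The steepest rises in dissection 3 were mostly long noncoding RNAs, and Lockd and Gm14005, which also rose, are known from blood cells in mouse. AI662270 had 19.99 RPKM in mandible and 25.9 RPKM in tibia of dissection 3, against 4.79 and 4.60 RPKM in mandible and 6.59 and 8.87 RPKM in tibia of dissections 1 and 2, the largest difference of the members (1.84, SE 0.15, adjusted p = 0.000436). Lockd, transcribed downstream of the cell cycle inhibitor gene Cdkn1b and studied in erythroid cells, had 31.0 RPKM in mandible and 35.3 RPKM in tibia of dissection 3, against 7.95 and 9.36 RPKM in mandible and 9.96 and 10.8 RPKM in tibia of dissections 1 and 2 (1.75, SE 0.11, adjusted p = 0.000313). Gm14005 (Morrbid), which sets the lifespan of short-lived myeloid cells, had 17.04 RPKM in mandible and 21.6 RPKM in tibia of dissection 3, against 6.54 and 5.48 RPKM in mandible and 10.9 and 7.92 RPKM in tibia of dissections 1 and 2 (1.31, SE 0.13, adjusted p = 0.000759).

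These 3 had the highest values in the libraries in which the erythroid sums were highest, those of dissection 3. That order is not particular to them, since it held in 53 of the 93 members and in 33.4% of all genes. Leukocyte and osteoclast markers summed to 6170 RPKM in mandible and 6093 RPKM in tibia of dissection 3, against 1143 and 1217 RPKM in mandible and 1323 and 1695 RPKM in tibia of dissections 1 and 2. The part of these cells in the 3 RNAs was not tested. Between sites, with the block and quantile normalization together, Gm14005 (-0.65, adjusted p = 0.0320) and AI662270 (-0.69, adjusted p = 0.0491) were lower in mandible, and neither passed without the normalization (adjusted p of 0.0653 and 0.0719 with the block). Gm19705 (1.65) and Rab26os (1.60) were also among the 6 steepest rises. Bvht, the cardiac lineage RNA Braveheart, also rose (0.63, adjusted p = 0.0255), with 12.8 RPKM in mandible and 13.5 RPKM in tibia of dissection 3, against 7.66 and 7.33 RPKM in mandible and 12.1 and 6.95 RPKM in tibia of dissections 1 and 2.

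Of the RNAs named as antisense partners of a coding gene, Dnm3os is the one with a known part in the skeleton: it is the precursor of the microRNAs miR-199a and miR-214, and mice without it have skeletal defects. It lies on the opposite strand inside Dnm3, the gene of the membrane-remodelling protein dynamin 3. Dnm3os had 11.6, 10.3 and 5.53 RPKM in mandible libraries, against 7.16, 9.14 and 4.39 RPKM in tibia libraries. The groups overlap and the log2 difference of 0.37 did not pass (SE 0.36, adjusted p = 0.906, and 0.159 with the block). Dnm3 itself had 3.90, 4.22 and 3.20 RPKM in mandible libraries, against 1.24, 1.04 and 0.858 RPKM in tibia libraries, without overlap, and was higher in mandible (1.47, SE 0.19, adjusted p = 0.0230). The difference between these 2 site differences was not tested, and counting without strand could add reads of one to the other. In dissection 3 Dnm3os fell (-0.87, SE 0.15, adjusted p = 0.00465), while Dnm3 did not pass (-0.29, adjusted p = 0.171).

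The other antisense-named members were set beside the gene of the same name. For Brip1os this is a partner by name only, since the coding genes on the strand opposite to it are Ints2 and Med13. Rab26os rose in dissection 3 (1.60, adjusted p = 0.000756) with 28.9 RPKM in mandible and 33.0 RPKM in tibia, against 10.6 and 11.0 RPKM in mandible and 10.4 and 7.83 RPKM in tibia of dissections 1 and 2, while Rab26 stayed at or below 0.696 RPKM in every library. Toporsos, in RefSeq the coding gene Smim27, rose as well (1.32, adjusted p = 0.000847) while Topors did not pass (0.17, adjusted p = 0.509). Rab10os (-0.49, adjusted p = 0.117) and Rab10 (0.42, adjusted p = 0.0569) did not pass, nor did Brip1os (-0.17) and Brip1 (0.20). Between sites none of these 4 members passed with or without the block. Of the partners Rab26 lay under the filter, and Topors, Rab10, Brip1 and Epb41l4a did not pass without the block. In the list of 22 tested intergenic regulatory RNAs, 6 rose and 5 fell in dissection 3 (median -0.20), where 28.1% of all genes rose and 17.2% fell. One of them, Fendrr, a regulator of mesoderm development whose mean lies below 5, was the 1 gene of the 4 noncoding lists (53 tested, 26 of them members) to pass between sites in the model of site only, with 6.39, 8.42 and 3.93 RPKM in mandible libraries, against 0.0497, 0.117 and 0.154 RPKM in tibia libraries (3.42, SE 0.28, adjusted p = 0.00355).

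The pseudogenes are the members whose values are least certain. A coding transcript of GENCODE M21 aligned to 25 of the 27, at 95% identity or more over the aligned bases in 19. Of 18 such pairs with the coding gene in the table, 16 had a higher mean in the pseudogene than in the coding gene. Gm1821 averaged 5646 RPKM, and Ubb, its match at 97.7% identity, 2874 RPKM. Oaz1-ps averaged 1248 RPKM and Oaz1 280 RPKM (99.7% identity), and Gm15772 averaged 656 RPKM and Rpl26 92.3 RPKM (99.5%). At the other end Rpl14-ps1 averaged 7.17 RPKM and Rpl14 1108 RPKM (98.9%). How reads matching both copies were assigned was not given in the sources used here, so neither value of such a pair can be taken as the level of that gene alone.

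In dissection 3, 16 of the 27 pseudogenes rose and 2 fell, with a median of 0.51 (0.23, with 8 higher and 4 lower, after quantile normalization). Of all genes tested, 28.1% rose and 17.2% fell, and of the other genes with a mean of at least 5 RPKM 36.8% and 21.1%. All 18 of the close pairs had the same sign in pseudogene and coding gene. Gm12191, a copy of Rpl30 at 99.7% identity, had 683 RPKM in mandible and 608 RPKM in tibia of dissection 3, against 214 and 249 RPKM in mandible and 190 and 249 RPKM in tibia of dissections 1 and 2 (1.52, adjusted p = 0.000316, and 0.90, adjusted p = 0.00111, after quantile normalization). Rpl30 itself differed by 1.14. Gm15772 rose by a log2 difference of 1.35 and Rpl26 differed by 1.25. Rps4l departed from its relative: at 79.7% identity to Rps4x it differed by -1.19 (adjusted p = 0.0844), from tibia library 3 alone, while Rps4x differed by 1.27. Atp6v0c-ps2 (0.95), Nutf2-ps1 (0.69), Gm6644 (0.58), Gm1821 (0.53) and Oaz1-ps (0.43), the other abundant pseudogenes, rose. Gm3893 (-0.89, adjusted p = 0.0255) and Mrgpra6 (-0.33, adjusted p = 0.0473) fell.

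Of the 6 members now annotated as protein coding, 5 rose in dissection 3 (28.1% of all genes did), with log2 differences from 0.52 (Rhno1) to 1.32 (Toporsos), and 6430706D22Rik (Hjurp) did not pass (-0.18). Toporsos had 68.0 RPKM in mandible and 47.7 RPKM in tibia of dissection 3, against 20.1 and 26.9 RPKM in mandible and 20.4 and 23.0 RPKM in tibia of dissections 1 and 2. 1500011K16Rik (Mtln) had 16.4 RPKM in mandible and 10.3 RPKM in tibia of dissection 3, against 7.37 and 7.57 RPKM in mandible and 7.10 and 5.10 RPKM in tibia of dissections 1 and 2. None of the 6 passed between sites. Of the structural RNAs, Vaultrc5 alone rose in dissection 3 (1.18, adjusted p = 0.0196).

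Short members were higher in dissection 3 than long ones. A transcript length was found for 86 of 93 members (92.5%), from 119 to 20771 bases with a median of 816, against a median of 2796 over all genes with a length. The length was matched by RefSeq transcript in 72 members. In the others it came from the gene name, the genomic span or a median over transcripts, and is approximate. Spearman's rank correlation of length with the dissection difference was -0.41 over these 86 members and -0.33 over 12644 genes, given as a description, since all points come from the same 6 libraries and RPKM itself divides by length. The median dissection difference was 0.71 in 22 members under 500 bases, 0.63 in 29 members of 500 to 1000 bases, 0.68 in 18 of 1000 to 2000 bases, 0.03 in 7 of 2000 to 4000 bases and -0.20 in 10 longer ones. The 6 copies of 5S, 1 profile at 0.66, count 6 times among the 22 and among the 86. Over all genes the medians of these length classes were 1.03, 0.81, 0.33, 0.06 and -0.08. Over the other genes with a mean of at least 5 RPKM they were 1.41, 0.92, 0.37, 0.04 and -0.17. Under 500 bases 12 of 22 members and 68 of 72 of these other genes were called higher. From 500 to 1000 bases the counts were 20 of 29 and 453 of 577, and from 1000 to 2000 bases 12 of 18 and 845 of 1761.

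Neat1 (20771 bases), Dnm3os and 2900097C17Rik, which fell, are among the longest members, and Malat1, at 6983 bases, rose against this order. The ribosomal protein and translation factor genes are short too, with a median of 835 bases. The part of transcript length in the differences of the host genes and pseudogenes was not tested.

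**Figure D5:**
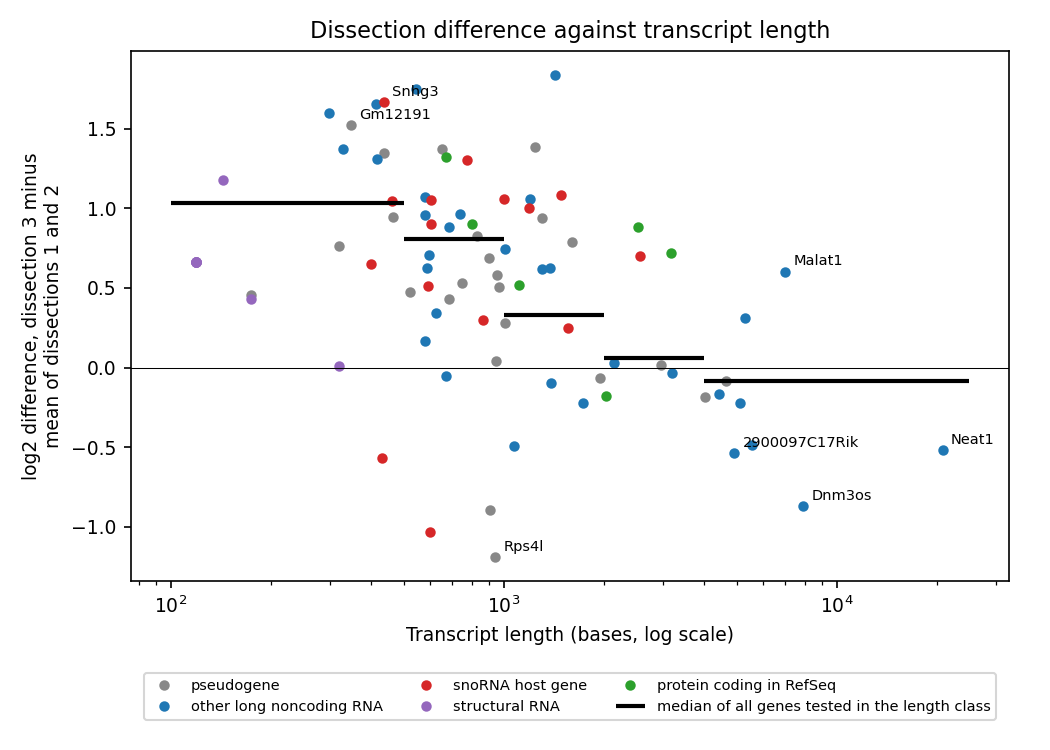
Log2 difference of dissection 3 from the mean of dissections 1 and 2 against transcript length (log axis) for the 86 members with a length, coloured by class, with black bars for the median of all tested genes in each length class. Members under 2000 bases lie mostly above 0 (class medians 0.71, 0.63 and 0.68) and the longest below it (-0.20), with Malat1 (0.60) above 0 at 6983 bases.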

How the data were processed

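The values that the authors deposited are RPKM for single RefSeq transcripts. The submitters' processing notes name TopHat2 2.1.0, CASAVA 1.8.2, Partek 6.6 and the build mm10, and per the file headers Partek 6.15.1207 made the RPKM on mm10. The rules for strand and for reads that match several places are not given in the sources used here. RPKM divides by length and mapped reads and makes no correction for composition. Here, transcripts (30198, of which 3017 noncoding) were summed per symbol, and the 12752 genes with a mean of at least 0.5 RPKM entered limma 3.58.1 (R 4.3.3) as log2(RPKM + 0.5) (lmFit and eBayes with a trend, two-sided, Benjamini-Hochberg over all genes, threshold 0.05). Log2 differences are on that scale and understate changes of low genes. All 93 members passed this filter. The site model held the site only, and the dissection model site and dissection. The fits were run on simulated data with large changes in a small part of the genes, a capped spread and otherwise independent libraries. That check does not cover differences as small as most here.

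Per the labels, same-numbered libraries of both sites share an experiment name and there were 3 dissections, so the number is called the dissection here. Deviations from site means correlated at 0.59, 0.66 and 0.80 in same-numbered pairs, so the numbers were taken to pair the libraries. The crossed pairs of numbers 1 and 2 reached 0.52 and 0.55, so the values mainly set number 3 apart. Values with the block are given where a call changes. Each library is a pool of mice, so a p-value between sites reflects how 3 pools differ, not mice. A p-value for dissection 3 rests on how far the site difference varied over dissections, not on how dissections vary. Read totals were estimated from 13731 genes with 1 transcript and 1 length in GENCODE M21; at these totals 33.1% to 53.7% of low values lay within 0.05 of a whole read, where 10% would by chance, so totals and estimated reads are approximate and no count model was used. Precision from counting applies beside the amplification of small amounts of RNA.

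Members, the contrast of dissection 3 and the 18 gene lists (4 noncoding, 5 coding, 9 of cell markers; 293 of 350 entries in the table) were chosen with earlier results of these data known. Named members were the 12 most abundant, those past the threshold in a site model, the 6 highest and lowest by site and by dissection, the members of the noncoding lists, antisense-named members and those at the threshold. Gm14005, Mrgpra6, Rpl31, the newly coding genes and Gm11974 and 1810032O08Rik (host genes under older symbols) were named after their values were seen. Coordinates and classes not set by gene name came from RefSeq (GRCm38.p6), strands from GENCODE M21 and printed sequences from RefSeq promoters. Pseudogenes were aligned to coding transcripts of GENCODE M21 with blastn 2.17.0. Python 3.11.15, pandas 2.3.3 and matplotlib 3.10.9 were used.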

Additional observations from a re-analysis of the deposited data

How the results depend on the processing

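The number of members past the threshold between sites depended on the model: 0 in the model of site only, 3 with the dissection number as a replicate block, 4 with the replicate block and quantile normalization together, 10 without both libraries of dissection 3, which adds the 6 copies of 5S and 4933409K07Rik (5 with the copies of 5S counted once, which was chosen after seeing the data), and between 0 and 1 when single libraries were left out, the 1 being Gm3893 without mandible library 3. Another pseudocount, filter, scaling or the highest single transcript left it at 0. Among all genes the share of site calls that were higher was 68.4% with the block and 45.9% with block and quantile normalization. The number past the threshold for dissection 3 was 58 and lay between 43 and 59 under all alternatives run. Over all 93 members the sign of the site difference, nowhere called in the model of site only, changed in 21 after quantile normalization, 20 after median-of-ratios scaling, 3 with the highest single transcript, 7 without both libraries of dissection 3 and 5 to 32 when single libraries were left out (32 without mandible library 3). The sign for dissection 3 changed in 7, 5 and 0 members under the first 3 of these and in 3 to 9 when single libraries were left out. Of the members with the largest differences, Rps4l between sites was at -0.029 without both libraries of dissection 3 and between -0.032 (without tibia library 3) and 1.22 when single libraries were left out. Snhg20 for dissection 3 lay between -2.13 (without mandible library 3) and 0.065 (without tibia library 3). The value of tibia library 3 decides both, and the cause of its low values was not tested. Calls for dissection 3 of Gm3893, Epb41l4aos and 2900097C17Rik were lost under some alternatives. Depth limits the 5S profile, at about 1 to 5 estimated reads a row and, only if reads were split among copies, 61.5 to 290 over its 60 rows.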
